A study of Mus musculus with 7 samples.

Results

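The genes described here are 41 components of 2 linked stress pathways, the integrated stress response and the unfolded protein response of the endoplasmic reticulum (ER). They were taken by symbol from a table of 53379 genes measured in tumour-associated macrophages, and all 41 were found. They fall into 2 kinases of eIF2alpha, 7 transcription factors and feedback regulators, 9 amino acid synthesis enzymes, 4 amino acid transporters, 4 aminoacyl-tRNA synthetases, 11 ER chaperones and folding enzymes, and a group of 4 made of Xbp1 and genes of ER-associated degradation. A filter on low counts left 40 of them for testing, among 16234 genes tested in all. The gene left out was Cth, which encodes cystathionine gamma-lyase and had between 0 and 18 counts per library.

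The macrophages were sorted as cells positive for CD45, CD11b and F4/80 from MC38 tumours, 21 days after implantation. MC38 is a mouse colon carcinoma line. All mice were C57BL/6J and ate a high-fat diet, so no library represents a lean animal, and the 4 wild-type and 3 knockout libraries differ in whether the mouse carries Gpr65. Gpr65 encodes a G-protein-coupled receptor that senses extracellular protons. Each library is labelled as its own mouse, and the cell types from which the knockout allele removes Gpr65, the age of the mice and their breeding are not given in the sources used here.

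In the integrated stress response, kinases that sense different stresses phosphorylate the translation factor eIF2alpha. PERK (gene Eif2ak3) senses unfolded protein in the ER and GCN2 (gene Eif2ak4) senses uncharged tRNA when amino acids run short. Phosphorylated eIF2alpha slows most translation but favours translation of Atf4 mRNA, so ATF4 activity is regulated largely above the level of the transcript. ATF4 protein then raises transcription of genes for amino acid synthesis, amino acid import and tRNA charging. The unfolded protein response adds the sensors IRE1 (gene Ern1), which splices Xbp1 mRNA, and ATF6, and both raise ER chaperones and degradation factors. A gene count does not measure phosphorylation, Xbp1 splicing or ATF6 cleavage.

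Expression is given per library as CPM, the read count of a gene scaled to the size of its library, with TMM factors that set the libraries to each other by their shared genes. Total counts ranged from 22449772 to 30483733. Gpr65 itself measured 93.4, 112, 92.6 and 65.2 CPM in wild-type libraries 1 to 4 and 0.683, 0.976 and 1.10 CPM in knockout libraries 1 to 3, so that every library matched its label (log2 fold change -6.62, SE 0.30, edgeR adjusted p = 8e-05). Knockout 1 differed from the other libraries, with 940 tested genes at a count of 0 against 51 to 281 elsewhere. On the first principal component (44.2% of the variance of 500 variable genes) it scored -68.5 against -2.30 to 27.995. Values of genes of the set are therefore also given without it where it moved them by over 1.5 times or turned their sign. Related genes listed apart from the set are given with all libraries only, and their values may also depend on knockout 1. All 11 macrophage markers were detected, with a summed level of 24017 to 28945 CPM in wild-type and 23325 to 46540 CPM in knockout libraries. The summed levels of all 12 marker lists, the macrophage list included, overlapped between the groups. The sum of the T cell list was 32.4 to 110 CPM in wild-type and 21.0, 65.9 and 453 CPM in knockout libraries 1 to 3. A sum is set mostly by the most abundant genes. By gene, 10 of 11 macrophage markers (median log2 fold change 0.32) and 8 of 8 T cell markers (0.94) were positive. All 6 tested neutrophil markers (-1.84) and 3 tested MC38 and epithelial markers (-1.51) were negative. Dendritic cell markers were 3 positive and 4 negative. The plasma cell genes Jchain and Tnfrsf17 and the neutrophil gene Ly6g had a count of 0 in all 7 libraries.

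Sequences are shown for the genes on which the results turn, because ATF4 and the unfolded protein response act through short promoter elements. RefSeq promoter windows on GRCm38.p6, from 250 bases before to 50 bases after the annotated start, were present for 34 of the 41 genes. The C/EBP-ATF element core TGATGNAA, searched on both strands, occurred in 7 of these 34 genes (20.6%), against 4.51% of the 27025 genes with a window and 3.97% of all 32851 windows. Stretches around the match follow for amino acid, glutathione and tRNA genes, 5′ to 3′ on the strand of the gene, with the matching letters in capitals. TTGCATCA and TTTCATCA are matches read from the other strand.
Asns (chr6:7693214-7693243, minus strand): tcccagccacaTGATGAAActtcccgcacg
Chac1 (chr2:119351038-119351067, plus strand): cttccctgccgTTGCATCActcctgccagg
Gars (chr6:55037960-55037989, plus strand): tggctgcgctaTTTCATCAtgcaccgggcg
Pycr1 (chr11:120643833-120643862, minus strand): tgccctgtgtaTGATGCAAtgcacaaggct

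The Asns match lies 23 to 16 bases before the RefSeq start, and the whole stretch shown lies within the first exon of the longer GENCODE M21 transcript. Trib3 has its match 15 to 22 bases after the RefSeq start, at chr2:152344039-152344046 on a minus-strand gene, and is not shown. That position lies before the start of the GENCODE M21 gene at 152344032. The upstream sequence of Slc7a11, which encodes the cystine transporter xCT, holds 2 copies in opposite orientation with 11 bases between them. It is shown over 249 bases up to position -2, together with 250 bases before the start of Herpud1, an ER-associated degradation gene.
Slc7a11 (chr3:50443615-50443863, minus strand): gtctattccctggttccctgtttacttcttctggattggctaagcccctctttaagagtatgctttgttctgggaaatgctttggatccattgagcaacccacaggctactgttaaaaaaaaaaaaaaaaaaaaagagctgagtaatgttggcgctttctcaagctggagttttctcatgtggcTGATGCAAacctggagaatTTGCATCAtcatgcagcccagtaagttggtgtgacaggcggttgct
Herpud1 (chr8:94386179-94386428, plus strand): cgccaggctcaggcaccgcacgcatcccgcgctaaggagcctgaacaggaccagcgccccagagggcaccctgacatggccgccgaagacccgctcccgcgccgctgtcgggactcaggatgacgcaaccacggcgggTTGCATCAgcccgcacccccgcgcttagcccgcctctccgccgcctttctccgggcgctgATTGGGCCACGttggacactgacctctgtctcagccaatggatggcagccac

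Herpud1 was the only one of the 34 genes with matches to 2 different elements. Its C/EBP-ATF match lies at positions -112 to -105, and at -52 to -42 it has the ER stress element II, which was searched as ATTGG, 1 base and CCACG and occurred in 0.0444% of genes. The ER stress element, searched as CCAAT and CCACG with 9 bases between them on either strand, occurred in 6 of 34 genes (17.6%) against 0.137% of all genes with a window. All 6 encode ER chaperones or folding enzymes. These sequences are shown for comparison with the C/EBP-ATF group, with CCAAT and CCACG, or their reverse complements ATTGG and CGTGG, in capitals.
Hspa5 (chr2:34772020-34772048, plus strand): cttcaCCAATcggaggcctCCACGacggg
Hsp90b1 (chr10:86705633-86705661, minus strand): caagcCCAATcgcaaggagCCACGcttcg
Hsp90b1, other copy (chr10:86705528-86705556, minus strand): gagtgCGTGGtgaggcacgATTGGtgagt
Calr (chr8:84847070-84847098, minus strand): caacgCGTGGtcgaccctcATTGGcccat
Pdia6 (chr12:17266486-17266514, plus strand): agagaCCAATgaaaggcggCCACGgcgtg
Dnajc3 (chr14:118937822-118937850, plus strand): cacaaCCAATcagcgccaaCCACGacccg
Creld2 (chr15:88819515-88819543, plus strand): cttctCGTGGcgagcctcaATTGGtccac

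No match to the UPR element core TGACGTGG was found in the windows of the 34 genes, and it occurred in 0.714% of all genes with a window. None of the matches in these genes overlapped another. Members were listed from textbook knowledge of these pathways, which includes work on these elements, so the shares describe the list and are not independent of how it was drawn up. A match is a stretch of letters and not a measured binding site.

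**Figure D1:**
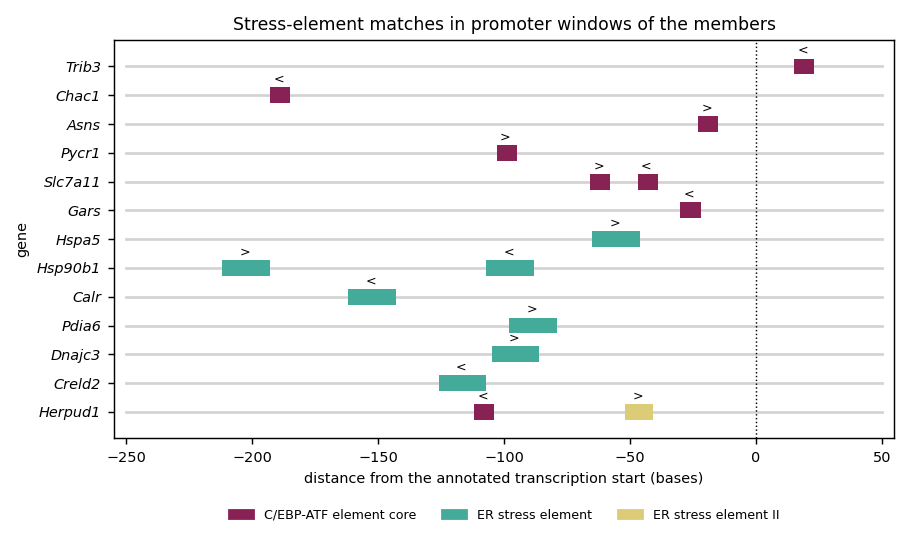
Position of each promoter match relative to the annotated transcription start (x axis, bases) in the 13 genes with a match (y axis), with arrows for the strand of the match on the gene. C/EBP-ATF element cores lie in amino acid, tRNA and feedback genes and in Herpud1, and ER stress elements lie in ER chaperone and folding genes.

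Members outside the ER groups were mostly lower in the fit in knockout macrophages, and ER chaperones mostly higher by small amounts that depended on the scaling. Outside the ER groups, 19 of 25 tested genes were lower in the fit and 6 higher, and the median log2 fold change (knockout minus wild-type) was -0.31, while among the 15 ER genes 10 were positive and 5 negative, with a median of 0.05. Under scaling by library totals 8 of the 15 ER genes were negative and their median was -0.04, and without knockout 1 the ER genes were 8 positive and 7 negative. Asparagine synthetase, Asns, was the gene with the smallest p of the set and had 29.1% of its wild-type mean in knockout macrophages. The tribbles pseudokinase Trib3 had 29.6% and the cystine transporter Slc7a11 32.2%, while Herpud1 had 208%. Over all 16234 genes tested, 50.3% were negative and the median was -0.0016. The difference between the branches was not tested, since the members were grouped with earlier results of these data known.

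None of the 40 tested genes passed an edgeR adjusted p of 0.05, a threshold that 6 of all 16234 genes passed (0.037%). At an unadjusted p under 0.05, 6 members were lower in knockout (Asns, Mthfd2, Trib3, Slc7a11, Psat1 and Sars) and Herpud1 was higher, against a background of 2.79% lower and 2.57% higher among all genes tested. DESeq2 called Asns and Mthfd2 (0.704% of all genes called), limma voom with library weights called Asns (0.0554%), and edgeR with no filter on low counts called Asns (0.0379%). At an unadjusted p under 0.05, limma voom had 11 members lower in knockout, beside 4.55% of all genes tested. In 7 members every knockout library lay below every wild-type library, namely the 6 above and Gars, beside 3.33% of all genes tested. In Hspa5 every knockout library lay above every wild-type library, beside 2.8% of all genes tested. In bulk sorted cells, fewer cells that express a gene and less RNA per cell cannot be told apart.

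Knockout 1 was the highest of the 3 knockout libraries in 15 of the 25 genes outside the ER groups. Without it, edgeR called Asns (log2 fold change -2.10, adjusted p = 0.0368, with 0.0825% of all genes called), and Trib3 (-2.68) and Herpud1 (1.396) each had an adjusted p of 0.0715. These counts were higher for all genes as well as for the members. Without knockout 1, 11 members were lower at an unadjusted p under 0.05 beside 4.89% of all genes, and 3 were higher beside 4.91%. The groups then did not overlap in 13 members lower in knockout, beside 10% of all genes, and in 5 higher, beside 9.54%.

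**Figure D2:**
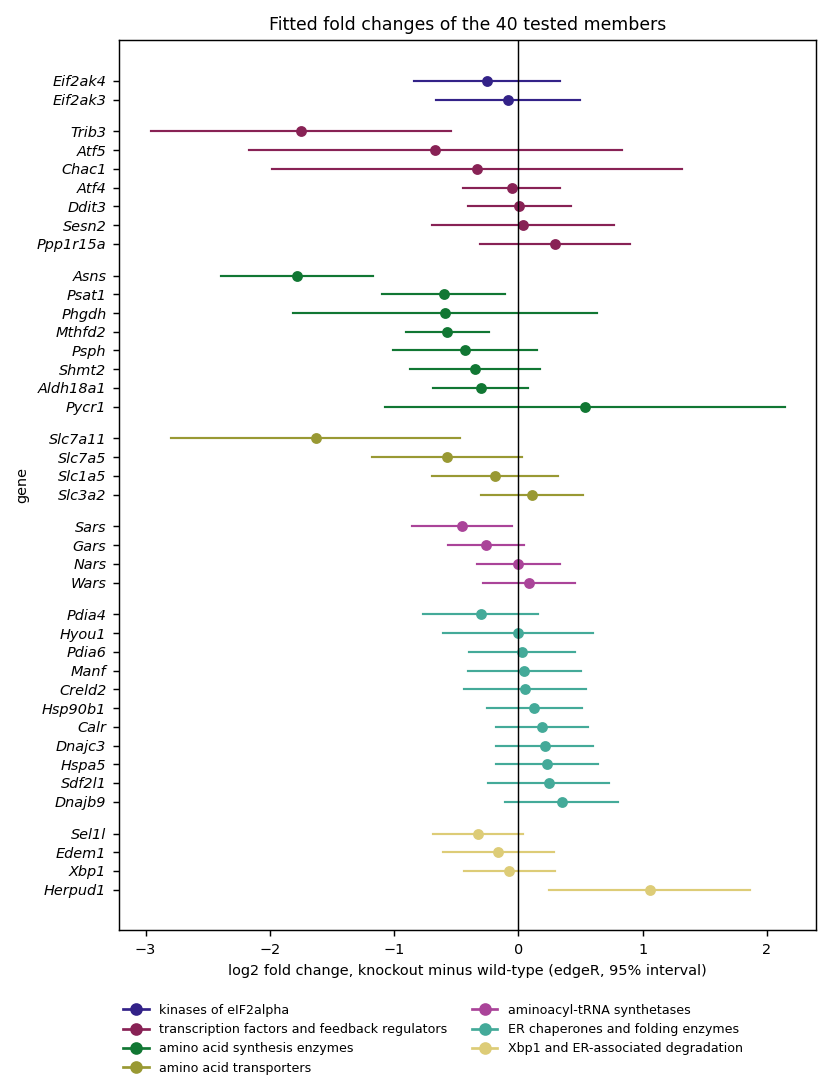
Fitted log2 fold change (x axis, knockout minus wild-type, edgeR, with 95% intervals) of the 40 tested genes (y axis), ordered and coloured by role. Most amino acid synthesis genes lie left of 0 and most ER chaperones right of 0, and the intervals of Asns, Mthfd2, Psat1, Trib3, Slc7a11, Sars and Herpud1 leave out 0 before adjustment.

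The kinases at the head of the pathway were expressed at low levels with groups that overlapped. Eif2ak3 measured 16.0 to 28.3 CPM in wild-type and 17.0 to 27.2 CPM in knockout libraries, with a log2 fold change of -0.08 (SE 0.26). For Eif2ak4 the ranges were 17.9 to 24.7 and 11.96 to 24.0 CPM, and the log2 fold change was -0.26 (SE 0.26). Knockout 1 was the lowest of all libraries in Eif2ak4, and without it Eif2ak4 had -0.02, Eif2ak3 0.08 and the median of this pair moved from -0.17 to 0.03. Of the other eIF2alpha kinases, Eif2ak1, which responds to haem shortage, had -0.01 (SE 0.22) and Eif2ak2, which responds to double-stranded RNA, had 0.23 (SE 0.18). A list of 12 tested genes for these kinases, eIF2 and eIF2B had 5 positive and 7 negative fold changes and a median of -0.02, and Eif2b4 (0.28, SE 0.17) and Eif2b1 (-0.29, SE 0.17) had the smallest p of it.

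Atf4 mRNA, the transcript whose translation the pathway controls, had overlapping levels in the 2 groups. It measured 221, 309, 245 and 270 CPM in wild-type libraries 1 to 4 and 267, 223 and 266 CPM in knockout libraries 1 to 3. All knockout values lay inside the wild-type range, and the 95% interval of the log2 fold change of -0.06 ran from -0.44 to 0.33. Ddit3, which encodes the transcription factor CHOP, measured 28.9, 29.1, 31.5 and 33.7 CPM in wild-type and 23.8, 34.8 and 34.3 CPM in knockout mice. Knockout 1 was below and the other two knockouts above the wild-type range, and the log2 fold change was 0.01 (95% interval -0.41 to 0.42). Without knockout 1 Atf4 had -0.11 and Ddit3 0.15, and the fitted sign of both genes changed under some other settings. A second annotated gene with the symbol Ddit3 shares 105 exon bases with this one, and reads from that stretch cannot be assigned to 1 of them.

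Trib3, a pseudokinase gene induced by ATF4 and CHOP whose product restrains them, had lower levels in knockout macrophages. It lies at chr2:152337422-152344032 on the minus strand (GRCm38) and measured 20.8, 31.0, 21.9 and 45.1 CPM in the wild-type and 17.1, 3.58 and 5.73 CPM in knockout mice. All 3 knockout libraries lay below the wild-type range, knockout 1 just below its lower end and the other two far below. The log2 fold change was -1.75 (SE 0.53, unadjusted p = 0.0096, edgeR adjusted p = 0.776). Without knockout 1 it was -2.68 and without knockout 2 it was -1.38.

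The remaining genes of the feedback group had overlapping groups and mixed signs. Ppp1r15a, whose product GADD34 recruits the phosphatase that reverses eIF2alpha phosphorylation, measured 314 to 431 CPM in wild-type and 261, 532 and 548 CPM in knockout mice, with a log2 fold change of 0.29 (SE 0.27). Sesn2, which encodes a leucine sensor that restrains mTORC1, measured 46.9 to 61.1 CPM in wild-type and 27.5, 84.4 and 60.4 CPM in knockout mice (0.04, SE 0.32). Both genes were lowest in knockout 1 of all libraries, and Ppp1r15a exceeded the wild-type range in the other two knockouts, Sesn2 in knockout 2. Without knockout 1 the log2 fold changes were 0.55 (SE 0.19) for Ppp1r15a and 0.36 (SE 0.19) for Sesn2. Atf5, a factor translated in the same way as Atf4, was low at 1.46 to 4.06 CPM in wild-type and 0.698 to 3.38 CPM in knockout libraries. Chac1, which encodes a glutathione-degrading enzyme, measured 1.62 to 5.01 CPM and 0.515 to 5.26 CPM. In both low genes knockout 1 was the highest knockout library, and the log2 fold changes were -0.67 (SE 0.66) for Atf5 and -0.34 (SE 0.73) for Chac1. Without it they were -1.68 (SE 0.62, edgeR adjusted p = 0.410) for Atf5 and -1.50 (SE 0.68, edgeR adjusted p = 0.533) for Chac1. Counts of 19 to 111 per library limit the precision for Atf5.

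**Figure D3:**
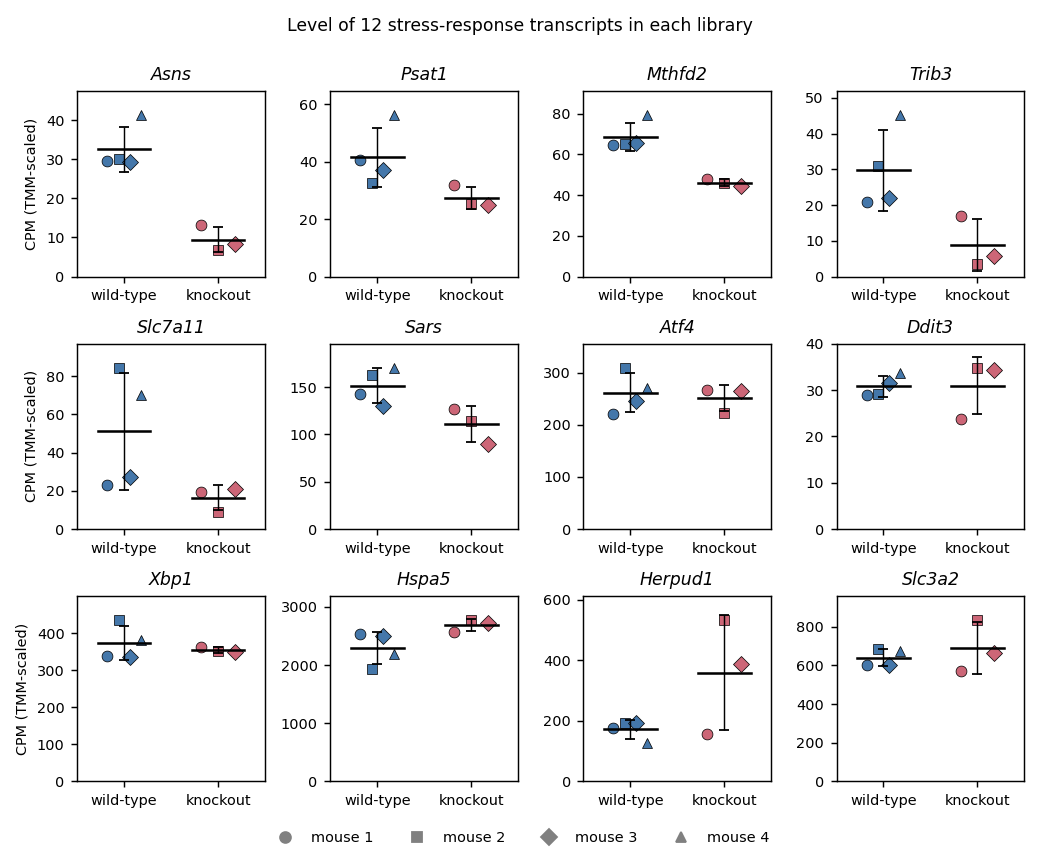
Level of 12 transcripts in TMM-scaled CPM (y axis, linear from 0) in each wild-type and knockout library, with a symbol for the mouse number, the mean as a line and the SD as error bars (n = 4 and n = 3). Asns, Psat1, Mthfd2, Trib3, Slc7a11 and Sars have all knockout libraries below all wild-type libraries, while Atf4, Ddit3, Xbp1 and Slc3a2 overlap.

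Amino acid synthesis had the lowest median of the 7 roles, at -0.50 over 8 tested genes, of which 7 were negative and 1 positive. Asns, which makes asparagine from aspartate and glutamine, lies at chr6:7675169-7693254 on the minus strand and carries the C/EBP-ATF match shown above. It measured 29.5, 30.1, 29.3 and 41.2 CPM in the wild-type and 13.2, 6.83 and 8.42 CPM in knockout mice. The highest knockout library had less than any wild-type library, and the gap between the groups was larger than the range within either one. The group values were 32.5 ± 5.78 CPM (SD, n = 4) and 9.47 ± 3.29 CPM (SD, n = 3), and edgeR gave a log2 fold change of -1.78 (SE 0.27, unadjusted p = 0.000105, adjusted p = 0.153). By unadjusted p it ranked 11 among the 16234 genes tested. It had no 50-base word in common with any other annotated transcript and no overlapping gene.

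The 3 enzymes of serine synthesis differed in how clearly the groups parted. Psat1, the aminotransferase of the pathway (chr19:15904678-15947337, minus strand), measured 40.4, 32.5, 37.2 and 56.1 CPM in wild-type and 31.8, 25.2 and 25.1 CPM in knockout mice. Knockout 1 lay just under wild-type 2, and the log2 fold change was -0.60 (SE 0.22, unadjusted p = 0.0225, edgeR adjusted p = 0.846). Phgdh, which catalyses the first step, measured 8.66 to 9.03 CPM in wild-type 1 to 3 and 19.8 CPM in wild-type 4, against 15.03, 3.82 and 4.19 CPM in knockout mice. Knockouts 2 and 3 were below and knockout 1 inside the wild-type range, with a log2 fold change of -0.59 (SE 0.54). It was -1.55 without knockout 1 (SE 0.42, edgeR adjusted p = 0.250), -1.12 by limma voom and -0.21 without wild-type 4. Of the 50-base words of Phgdh transcripts 47.8% also occur in other genes, chiefly the pseudogene Gm7901, so its counts are uncertain. Psph, the phosphatase of the last step, measured 11.8 to 16.8 and 8.31 to 14.2 CPM (-0.43, SE 0.25), and 10.4% of its exon bases overlap Cct6a on the opposite strand.

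Mitochondrial one-carbon metabolism uses the serine made by these enzymes, and in its gene Mthfd2 the groups parted with little spread within knockout. Mthfd2 (chr6:83305691-83325908, minus strand) encodes a mitochondrial methylenetetrahydrofolate dehydrogenase and measured 64.7, 64.9, 65.5 and 79.1 CPM in wild-type and 48.0, 46.0 and 44.3 CPM in knockout mice. The 3 knockout values lay close together and all below the wild-type range, knockout 1 included. Its log2 fold change was -0.57 (SE 0.15, unadjusted p = 0.00387, edgeR adjusted p = 0.730), and DESeq2 gave an adjusted p of 0.0481. Shmt2, which feeds the same pathway from serine, measured 70.0 to 116 CPM in wild-type and 94.4, 58.1 and 62.2 CPM in knockout mice (-0.35, SE 0.23), with knockout 1 inside the wild-type range and -0.61 (SE 0.21) without it.

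Proline synthesis genes had groups that overlapped. Aldh18a1, which makes the first intermediate, measured 41.7 to 59.3 CPM in wild-type and 41.3 to 44.3 CPM in knockout libraries (-0.31, SE 0.17). Pycr1, which catalyses the last step, was the 1 gene of this role with a positive fitted value, at 1.16 to 3.84 CPM in wild-type and 8.81, 1.91 and 1.14 CPM in knockout mice. Knockout 1 alone exceeded the wild-type range, and the log2 fold change of 0.53 had an SE of 0.71. The direction turned without knockout 1 (-0.85, SE 0.56) and by limma voom (-0.68), and without knockout 1 no tested gene of this role had a positive value. Cth had 1, 11, 7 and 18 counts in wild-type and 0, 0 and 5 counts in knockout mice and was not tested.

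Of the 4 amino acid transporters 3 were negative in fold change and 1 was positive, the median was -0.38, and the groups were apart in Slc7a11 alone. Slc7a11, the cystine and glutamate exchanger (chr3:49892526-50443614, minus strand), measured 23.1, 84.3, 27.1 and 70.0 CPM in wild-type and 19.2, 9.07 and 21.1 CPM in knockout mice. Wild-type 2 and 4 were far above wild-type 1 and 3, and knockouts 1 and 3 lay only a little below the latter pair. The log2 fold change was -1.63 (SE 0.51, unadjusted p = 0.0113, edgeR adjusted p = 0.776), and limma voom with library weights gave -1.13 with an unadjusted p of 0.0552. Slc7a5, the large neutral amino acid transporter LAT1, measured 45.3 to 75.1 CPM in wild-type and 59.6, 30.02 and 41.1 CPM in knockout mice (-0.57, SE 0.27). Slc3a2, the heavy chain that both light chains need at the cell surface, measured 600 to 683 CPM and 572 to 833 CPM (0.11, SE 0.18). Slc1a5, the glutamine transporter ASCT2, measured 135 to 173 CPM and 94.7 to 179 CPM (-0.19, SE 0.22). Without knockout 1 the values were -0.87 (SE 0.25) for Slc7a5, 0.21 (SE 0.18) for Slc3a2 and -0.46 (SE 0.20) for Slc1a5.

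Wild-type 2 and wild-type 4, the libraries with the highest Slc7a11 and Trib3, also had the highest sums of the neutrophil list and of the MC38 and epithelial list. Among wild-type libraries they were likewise the highest in summed NK cell, plasma cell, endothelial and mast cell markers. This order was not seen for macrophage, T cell, B cell, dendritic cell, fibroblast or erythroid markers. In wild-type 2 the NK cell, plasma cell, endothelial and mast cell sums rested mostly on few genes. There Klrk1 gave 70.0 of 76.6 CPM, Pecam1 163 of 173, Kit 12.5 of 12.5, and Prdm1 and Sdc1 108 and 33.3 of 143. Other genes of these lists did not all share the order, with Kdr lowest in wild-type 2 (0.965 CPM) and Vwf highest there (8.49 CPM). The 10 neutrophil markers summed to 17.6, 115, 9.36 and 48.8 CPM in wild-type and 22.3, 2.36 and 4.23 CPM in knockout mice, and 9 of the 10 had a count somewhere. The defining marker Ly6g was at 0 throughout, and Mpo, Elane and Camp did not exceed 0.270 CPM. The 7 MC38 and epithelial markers summed to 126, 380, 137 and 451 CPM in wild-type and 168, 42.1 and 78.0 CPM in knockout mice. Most of that sum was Cdh1, at 123 to 437 CPM in wild-type and 37.6 to 167 CPM in knockout libraries, while Krt8 and Krt19 were at 0 in 5 and 6 of 7 libraries. The place of wild-type 2 above wild-type 3 in that sum rested on Cdh1. Epcam measured 3.97 CPM in wild-type 2 and 4.58 CPM in wild-type 3, and Krt18 0.540 and 0.730 CPM. In mean log2 level the 3 tested genes of this list had knockout values of -1.91, -1.42 and -2.20 relative to wild-type, below the wild-type range of -0.62 to 1.09. Whether other cell types had a part in the levels of Slc7a11, Trib3 or the other members was not tested.

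The tRNA synthetases had small differences with small errors. Sars, seryl-tRNA synthetase (chr3:108424865-108445209, minus strand), measured 143, 163, 130 and 171 CPM in wild-type and 127, 115 and 90.0 CPM in knockout mice. Knockout 1 was just below wild-type 3, and the log2 fold change was -0.45 (SE 0.18, unadjusted p = 0.0307, edgeR adjusted p = 0.917). Gars, glycyl-tRNA synthetase (chr6:55038007-55079500, plus strand), measured 84.9, 92.9, 90.9 and 89.8 CPM in wild-type and 78.9, 77.0 and 68.2 CPM in knockout mice. Its groups did not overlap and lay close together, with a log2 fold change of -0.26 (SE 0.13, unadjusted p = 0.0833, edgeR adjusted p = 0.984). Nars, asparaginyl-tRNA synthetase, had -0.0027 (95% interval -0.34 to 0.33), and Wars, tryptophanyl-tRNA synthetase, an enzyme also induced by interferon, had 0.08 (SE 0.16). Without knockout 1 they had -0.02 and 0.14.

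**Figure D4:**
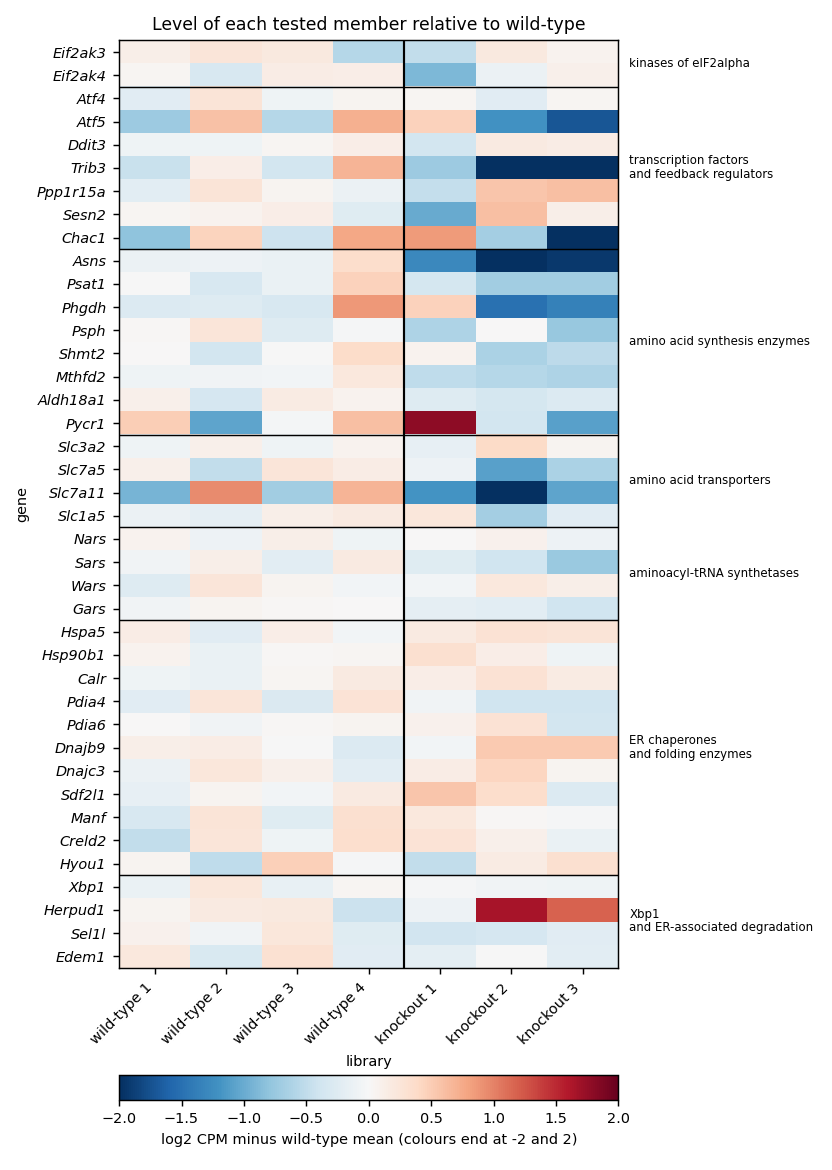
Level of each tested gene (y axis, grouped by role) in each library (x axis) as log2 CPM minus the wild-type mean, with colours ending at -2 and 2. Blue cells gather in knockout 2 and knockout 3 among amino acid synthesis and transporter genes and in Trib3, Atf5 and Chac1. Herpud1 is red in the same 2 libraries, where the feedback genes Ppp1r15a, Ddit3 and Sesn2 are also above the wild-type mean.

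ER chaperones and folding enzymes had higher values more often than lower ones in knockout macrophages, and none passed the test. The fold change was positive in 9 of 11 tested genes and negative in 2, with a median of 0.13 and a range from -0.30 for Pdia4 to 0.35 for Dnajb9, and the smallest unadjusted p was 0.116. Hspa5, the main ER chaperone BiP (chr2:34771970-34777547, plus strand), measured 2526, 1939, 2490 and 2190 CPM in wild-type and 2566, 2769 and 2719 CPM in knockout mice. Knockout 1 exceeded wild-type 1 by little, and the log2 fold change was 0.23 (SE 0.18, unadjusted p = 0.231, edgeR adjusted p = 1). Its 95% interval, from -0.18 to 0.64, leaves out a rise of 2-fold. Hsp90b1 (GRP94), 0.13 (SE 0.17), and the lectin chaperone Calr, 0.19 (SE 0.16), had groups that overlapped, and Hsp90b1 had 0.01 without knockout 1.

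The other genes of this role had values within a narrow band. The disulfide isomerases Pdia4 and Pdia6 had -0.30 (SE 0.20) and 0.03 (SE 0.19). The BiP cochaperones Dnajb9 and Dnajc3 had 0.35 (SE 0.20) and 0.21 (SE 0.17), and Dnajb9 measured 21.9 to 29.4 CPM in wild-type and 25.4, 38.1 and 37.9 CPM in knockout mice. Without knockout 1 Dnajb9 had 0.50. Sdf2l1, a BiP-associated ER protein, had 0.25 (SE 0.21), and its 461 CPM in knockout 1 was the highest value of the 7 libraries, without which it had 0.05. The secreted ER stress proteins Manf and Creld2 had 0.05 (SE 0.20) and 0.05 (SE 0.22), and the BiP exchange factor Hyou1 had -0.0034 (SE 0.27). Without knockout 1 Pdia6, Manf and Creld2 had small negative values of -0.02, -0.04 and -0.07 and Hyou1 had 0.20. Under scaling by library totals, which moved the median of all genes from -0.0016 to -0.11, the median of this role was 0.03, so the small positive values of this role are relative to the TMM scale.

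Xbp1, the transcript that IRE1 splices, measured 338, 435, 336 and 382 CPM in wild-type and 363, 351 and 349 CPM in knockout mice. All 3 knockout values lay inside the wild-type range, with a log2 fold change of -0.07 (95% interval -0.44 to 0.29). Herpud1, which organises the complex that extracts misfolded proteins from the ER (chr8:94386438-94395377, plus strand), measured 176, 194, 194 and 127 CPM in wild-type and 158, 532 and 388 CPM in knockout mice. Knockouts 2 and 3 were far above and knockout 1 inside the wild-type range. The log2 fold change was 1.06 (SE 0.36, unadjusted p = 0.0163, edgeR adjusted p = 0.812), which was 1.396 without knockout 1 and 0.66 without knockout 2. Sel1l, the adaptor of the ubiquitin ligase of this pathway, measured 131 to 182 CPM and 119 to 132 CPM (-0.33, SE 0.16), and Edem1, which marks glycoproteins for disposal, 257 to 391 CPM and 273 to 313 CPM (-0.16, SE 0.20).

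Per kilobase of exon, the set spanned over 3 orders of magnitude in wild-type macrophages, and the ER chaperones led it. Hspa5 was highest at 541 CPM per kilobase, followed by Calr at 295, Sdf2l1 at 284 and Hsp90b1 at 196. Slc3a2, at 181 CPM per kilobase, was the highest gene outside the ER groups, and Xbp1 (115) and Atf4 (111) stood close together. Asns (11.9), Trib3 (13.97) and Slc7a11 (3.67) were in the lower part of this order, above Chac1 (1.95), Atf5 (1.36), Pycr1 (0.696) and Cth (0.121). In knockout macrophages Herpud1 moved from place 12 to place 7 in the order, at 154 CPM per kilobase, and Asns from place 30 to place 33.

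The mean log2 level of the 25 genes outside the ER groups, set to the wild-type mean, was -0.14, -2e-04, -0.08 and 0.22 in wild-type libraries 1 to 4 and -0.20, -0.56 and -0.62 in knockout libraries 1 to 3. Each knockout library was below each wild-type library, with knockout 1 close to wild-type 1. For the 15 ER genes the values were -0.05, 0.01, 0.05 and -0.0037 in wild-type and 0.04, 0.23 and 0.05 in knockout mice, where the groups overlapped. Wild-type 4 was the highest wild-type library in 12 of the 25 genes outside the ER groups and wild-type 1 in none. With the C/EBP-ATF match, 5 of 7 genes were negative and 2 positive in fold change (median -0.34), and the 6 genes with the ER stress element were positive (median 0.16), although Pdia6 and Creld2 were negative under library totals and without knockout 1. These counts follow from the same fold changes as above and add no separate evidence.

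**Figure D5:**
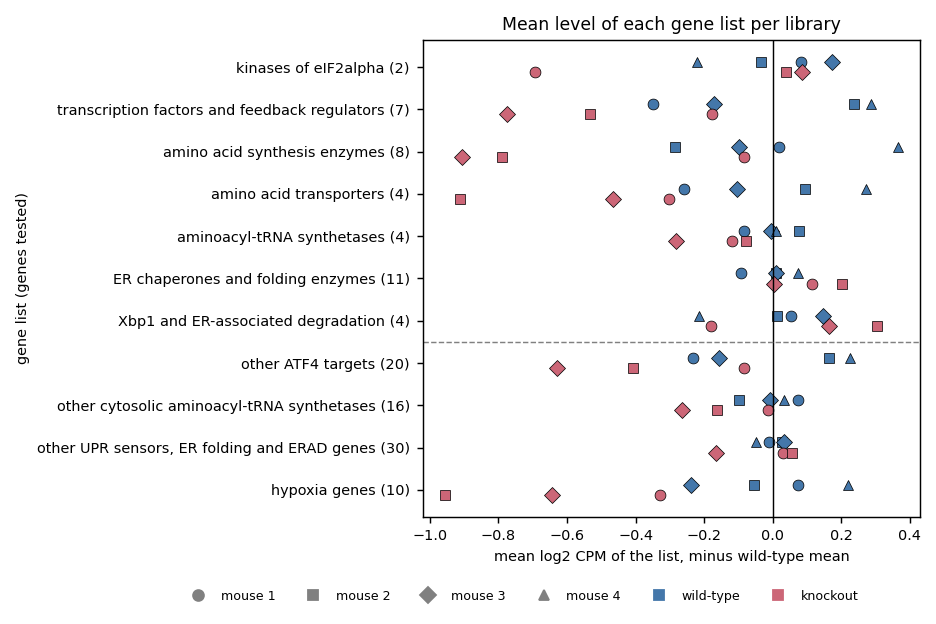
Mean log2 CPM of each gene list minus its wild-type mean (x axis) in each library, with colour for genotype and symbol for mouse number, for the 7 roles (above the dashed line) and 4 lists of related genes (below). Knockout 2 and 3 lie left of all wild-type libraries in the feedback, amino acid synthesis and transporter roles, and the ER chaperones overlap. Knockout 2 and 3 lie there too in the other ATF4 targets, the other cytosolic tRNA synthetases and the hypoxia genes. Signs were mixed in the feedback role, with 3 genes positive and 4 negative in fold change and a median of -0.06.

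Among other genes of the pathways, listed apart from the 41, the ATF4 targets were mostly negative as well. Of 20 other tested ATF4 targets 16 were negative in fold change and 4 positive, and their median was -0.32. Aldh1l2, a mitochondrial folate enzyme, had -1.78 (SE 0.62, unadjusted p = 0.0182) and the lipoprotein receptor gene Vldlr -1.59 (SE 0.61, unadjusted p = 0.0283), both at levels under 5 CPM and both with groups that did not overlap (edgeR adjusted p = 0.823 and 0.909). Jdp2, chosen after its values were seen because its groups also did not overlap, had -0.25 (SE 0.14). Groups thus did not overlap in 3 of the 20, all lower in knockout, beside 3.33% of all genes tested. Of the 16 other cytosolic tRNA synthetases 13 were negative and 3 positive, with a median of -0.13, and the smallest p were those of Aars, alanyl-tRNA synthetase (-0.42, SE 0.17, edgeR adjusted p = 0.917), and Cars, cysteinyl-tRNA synthetase (-0.39, SE 0.17, edgeR adjusted p = 0.923). In 2 of these 16 synthetases, Cars among them, the groups did not overlap, both lower in knockout, beside 3.33% of all genes tested. These lists were also drawn up with earlier results known.

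Among 30 other unfolded protein response genes, 15 were positive and 15 negative, with a median of -0.01. Groups did not overlap in 1 gene lower in knockout and 1 higher, beside 3.33% and 2.8% of all genes tested. The oxidase gene Ero1l, which regenerates disulfide isomerases and is also induced by hypoxia, measured 225, 183, 183 and 214 CPM in wild-type and 147, 94.9 and 112 CPM in knockout mice, with no overlap (-0.77, SE 0.19, edgeR adjusted p = 0.661). The sensor Ern1 had -0.74 (SE 0.28, edgeR adjusted p = 0.907), at 26.4 to 52.8 CPM in wild-type and 18.9 to 29.3 CPM in knockout libraries, and the sensor Atf6 had 0.25 (SE 0.28). Of 10 cytosolic heat shock genes 5 were positive and 5 negative (median -0.01), with the smallest p for Bag3 (0.36, SE 0.31) and Hsp90ab1 (0.20, SE 0.20). Of 8 mitochondrial stress genes 3 were positive and 5 negative (median -0.10), with the smallest p for Hspa9 (-0.43, SE 0.14, edgeR adjusted p = 0.796) and Clpp (-0.28, SE 0.18). Of these 8 genes, 1 (Hspa9) was lower in knockout with no overlap, and of the 10 heat shock genes 0, beside 3.33% of all genes tested. Of 10 hypoxia genes 9 were negative and 1 positive (median -0.68), led by Ero1l and Egln3 (-0.78, SE 0.22, edgeR adjusted p = 0.736). In 5 hypoxia genes every knockout library lay below every wild-type library, beside 3.33% of all genes tested. edgeR called 0 genes of these companion lists, and limma voom called 0, while DESeq2 called Ero1l (0.704% of all genes called). At an unadjusted p under 0.05 by edgeR 9 were lower and 0 higher, beside 2.79% and 2.57% of all genes tested.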

How the data were processed

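RNA was measured by RNA-seq in 7 libraries of sorted tumour macrophages, 4 wild-type and 3 Gpr65 knockout. The authors deposited whole-number read counts per gene for all libraries in 1 table, without normalization, and SMART-seq libraries were made from polyA RNA, per the labels' protocols. The submitters' processing notes name cutadapt 1.15, FastQC 0.11.5, BWA 0.7.12, DESeq2 1.24.0 and GRCm38, with no role or order. The counting program and its strand setting are not given in the sources used here, and sense and antisense reads cannot be told apart.

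Counts were fitted with edgeR 4.0.16 under R 4.3.3 (quasi-likelihood F test, robust, TMM scaling, default filter by group, Benjamini-Hochberg over 16234 genes, threshold 0.05) on an intercept and genotype. The standard error (SE) is the log2 fold change divided by the root of F, and a prior count of 2 entered log2 CPM. Negative fold changes mean a lower level in knockout. Pairs of libraries within a group differed far beyond counting noise (chi-square per degree of freedom of at least 30.4), so each counted as 1 replicate. The fit was tested on simulated data.

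The members, their roles, the companion lists and the marker lists were chosen with earlier results of these data known. Values per library were given for Atf4, Ddit3, Trib3, Asns, Hspa5 and Xbp1, for each member with an unadjusted p under 0.05 and for each with groups that did not overlap. From each companion list the 2 genes with the smallest p were named, with Ern1, Atf6, Eif2ak1 and Eif2ak2. Gene positions, exon lengths and overlaps are from GENCODE M21 (GRCm38). The symbols of 53274 of 53379 identifiers came from it, and 0.000338% of the counts were in rows with no symbol. Alternatives were 3 other scalings, 2 other filters, DESeq2 1.42.0, edgeR without robust estimation, voom with library weights (limma 3.58.1), a replicate block, an adjusted p of 0.1 and each library left out.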

Additional observations from a re-analysis of the deposited data

Results flagged for a closer look

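In 3 of 52 sets of wild-type values examined, 1 mouse lay far from the other 3, by the distance to its nearest neighbour as a share of the whole range, and chance alone marks about 1 in 20 such sets. In each it was wild-type 4 that was the highest. The share of the range was 0.939 for Asns, 0.967 for Phgdh and 0.942 for Mthfd2. Without wild-type 4 the log2 fold change was -1.65 for Asns (edgeR adjusted p = 0.558), -0.50 for Mthfd2 and -0.21 for Phgdh, which had -0.59 with all libraries. The 3 knockout mice were too few to be examined in this way.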

How the results depend on the processing

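Asns kept its direction in 16 of 16 alternatives and its log2 fold change passed the threshold in 4 of them. It was -1.79 with no filter on low counts (edgeR adjusted p = 0.00524), -1.77 by DESeq2 (adjusted p = 1.06e-06) and -1.93 by limma voom (adjusted p = 0.0284). With 1 library left out it lay between -2.10 (without knockout 1, edgeR adjusted p = 0.0368) and -1.60, and its adjusted p over the alternatives ranged from 1.06e-06 to 1. The number of genes called was 11 with no filter, 114 by DESeq2, 1 with the replicate block and 3 to 14 with 1 library left out (3 without knockout 2, 14 without knockout 1). The number of members called was 1 with no filter, 2 by DESeq2, 1 by limma voom, 0 with the replicate block and 0 to 1 with 1 library left out.

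The median of all members was -0.19 under library totals and between -0.15 and -0.06 with 1 library left out. Genes outside the ER groups had 18 to 23 negative fold changes over the alternatives, and their median was -0.52 without knockout 1. The median of the ER genes ranged from -0.04 to 0.19, so its sign depended on the scaling. The number of members lower at an unadjusted p under 0.05 was 4 with the replicate block and 11 by limma voom (4.55% of all genes). With 1 library left out it was 5 to 11, where 11 was without knockout 1 (4.89% of all genes). By limma voom 3 members (Ppp1r15a, Dnajb9 and Herpud1) were higher. Members lower with no overlap numbered 6 under upper-quartile and library-total scaling and 7 to 13 with 1 library left out, where 13 was without knockout 1 (3.33% of all genes in all libraries, 10% without knockout 1). These last counts, and the division into genes outside and inside the ER groups, were added as alternatives after seeing the data. For the counts by unadjusted p and by overlap, no share of all genes was computed under the replicate block or the other scalings. The same holds for the other left-out libraries and for members higher by limma voom, so those counts have no background beside them.

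The fitted sign of Ddit3, Atf4, Xbp1 and Pycr1 changed, and so did that of some other members with small values. Among these others, Sesn2 was -0.14, Slc3a2 -0.02 and Wars -0.03 under library totals, and all were positive in the main fit. Ddit3 was -0.13 under library totals, -0.0049 with no filter, -0.044 without wild-type 1, -0.019 without wild-type 2, -0.088 without knockout 2, -0.070 without knockout 3 and 0.15 without knockout 1. Atf4 was 0.012 by limma voom, 0.037 without wild-type 2 and 0.023 without knockout 2, between -0.15 and 0.037 with 1 library left out. Xbp1 was 0.0103 without wild-type 2 and -0.14 without wild-type 1, the ends of its range with 1 library left out. Pycr1, at 0.53, was -0.68 by limma voom and -0.85 without knockout 1. The cause was not tested. Mthfd2 passed by DESeq2 (-0.57).

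No pairing of libraries by mouse number was seen, and 3 shared numbers are too few to settle whether there was one. Libraries with the same number had deviations from their group means that correlated at 0.0656, 0.0509 and 0.0882, and 1 of 3 knockout libraries correlated best with its own number. With the replicate block Asns was -1.70 (edgeR adjusted p = 1), Trib3 -1.77 and Slc7a11 -1.21. The common biological variation between mice, 42.9% of the mean, limits what 4 against 3 mice can show.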
